A study of Arabidopsis thaliana with 6 samples.

Results

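The comparison described here set spl7 seedlings of Arabidopsis thaliana grown with 5 µM added CuSO4 against spl7 seedlings grown on standard MS medium, with 1 RNA-seq library a side. It used 2 of the series' 6 samples. The members were all gene entries that the value files share by name and locus, which came to 27052. Of these, 3374 were set aside because another entry had the same locus or because they were CPuORF entries, which are upstream reading frames that lie inside the transcript of another gene. Of the 23678 entries kept, 7807 stayed under 5 FPKM in both spl7 libraries and 15871 reached it in at least 1 of them. FPKM is the number of sequenced fragments relative to transcript length and to the total of mapped fragments. The ratio used throughout is log2 of (FPKM + 1) with copper over (FPKM + 1) on MS, so it understates the change of weakly expressed genes.

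The spl7 libraries came from whole seedlings of the spl7 mutant at 7 days, with 5 µM added CuSO4 in the one and none in the other. Both carried the spl7 mutation. The wild-type (Col-0) libraries, with and without the same copper, served for comparison. All seeds had 4 days at 4 °C and then grew at 22 °C in continuous white light. The labels give neither the allele nor the number of seedlings pooled. With 1 library a side there was no replicate spread and no test, so every call below is a difference between libraries past a fixed fold. In whole seedlings, fewer cells of a type and less RNA per cell cannot be told apart.

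SPL7 is a zinc-finger transcription factor of the SBP family that switches on the copper-deficiency programme of Arabidopsis. Its known targets include membrane copper transporters, ferric and cupric reductases, the iron superoxide dismutase FSD1, and microRNAs that lower the messenger RNA of copper proteins that can be spared. Plants that lack it take up copper poorly and grow badly when copper is scarce, and extra copper in the medium is known to ease that growth defect. Copper is also a redox-active metal that is toxic in excess, and plants are known to meet metal stress with glutathione-dependent and defence genes.

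The SPL7 transcript was first used to check the labels. It had 20.7 FPKM in spl7 seedlings with copper, against 20.2 FPKM in spl7 seedlings on MS. Wild type had 105 FPKM with copper, against 107 FPKM on MS. The libraries labelled spl7 were thus both low, and copper made no difference past 2-fold in either genotype. The 4 libraries had median FPKM between 29.3 and 30.3, and between 7081 and 7228 entries listed at 0. Green-tissue transcripts dominated each library, and RBCS1A, a small subunit of Rubisco, had 65080 FPKM in spl7 with copper, against 73393 FPKM in spl7 on MS. The 7 reference genes had ratios between -0.06 and 0.28 in spl7, with a median of 0.02. Of the 60 CPuORF entries, 10 were under 1 FPKM in both MS libraries and at 5 FPKM or more in both copper libraries, and none the other way round, against 14 and 2 of the 23678 entries kept. CPuORF19 was at 415 FPKM with copper and 0.0800 FPKM on MS in spl7. In wild type it was at 389 FPKM with copper and 0.0957 FPKM on MS. Such entries stayed out of every count below unless named. The labels do not say whether the copper and MS files were made with the same settings, and the part of such a difference in the copper ratios of both genotypes was not tested.

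Added copper separated the spl7 libraries in few genes, and mostly upward. At least 2-fold higher with copper were 310 genes, or 1.95% of the 15871, and at least 2-fold lower were 81 genes, or 0.51%. The median log2 ratio over all 15871 was -0.03, and 93.6% of them lay within 1.5-fold. Of the 15871, 350 reached 5 FPKM with copper only, and 153 of these were among the 310 higher genes. Of the 310 higher genes, 71 were listed at 0 on MS, and the other 239 had a median log2 ratio of 1.42, with 45 of them at least 4-fold and 10 at least 8-fold higher. Of the 81 lower genes, 46 were listed at 0 with copper. Among the other 35 the lowest ratio was -1.74, so none was 4-fold lower. An exact 0 in these files may be a failed estimate rather than an absent transcript, and no fold is given for such genes.

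The genes called higher were weakly expressed and short more often than the rest. Calls of higher expression took 9.04% of genes whose mean over the spl7 libraries was under 10 FPKM, against 0.476% of genes at 300 FPKM or more. By locus length they took 5.39% of genes under 1000 bp, against 0.862% of genes of 4000 bp or more. Lower calls showed the same order, with 3.75% of genes under 10 FPKM, and none of the 2099 genes at 300 FPKM or more. The part of counting error in the weakly expressed calls was not tested. At the threshold, ARSK1 lay just inside with 22.1 FPKM with copper and 10.5 FPKM on MS, and AT1G15125 just outside with 20.1 FPKM with copper and 9.54 FPKM on MS. On the lower side CRK30 lay just inside with 20.7 FPKM with copper and 43.0 FPKM on MS, and AT1G52050 just outside with 11.7 FPKM with copper and 24.4 FPKM on MS.

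**Figure D1:**
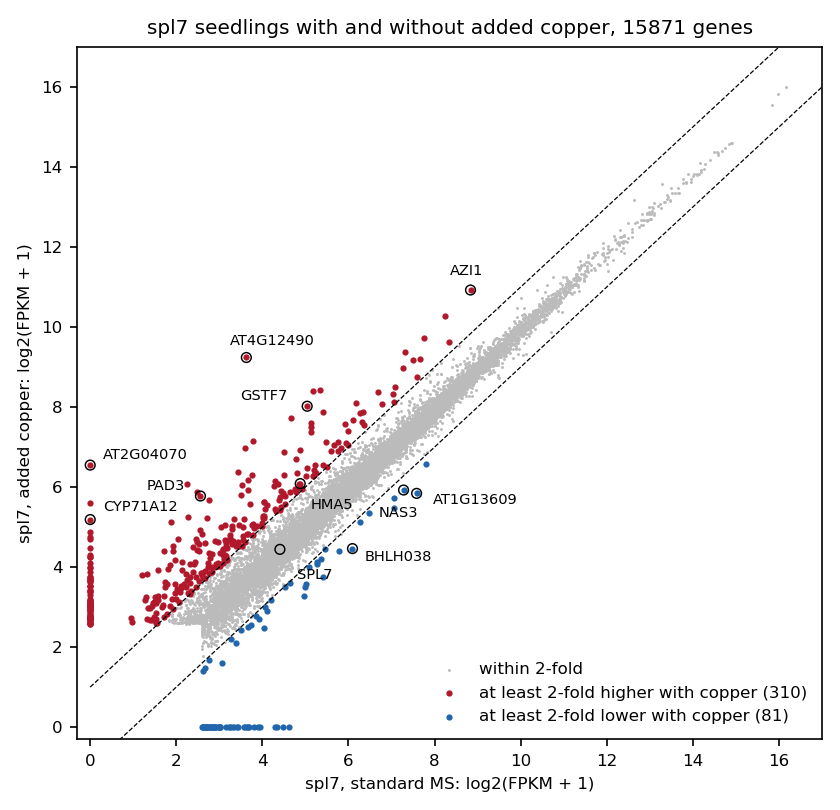
Each point is 1 of 15871 genes, with log2(FPKM + 1) in spl7 seedlings with added copper on the vertical axis and in spl7 seedlings on standard MS on the horizontal axis. Dashed lines mark a 2-fold ratio, and the 310 genes called higher lie above the upper line while the 81 called lower lie below the lower one, many of each at 0 on 1 axis.

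Among genes above 0 in both spl7 libraries, the 12 highest log2 ratios lay between 2.96 and 5.61. AT4G12490 had 603 FPKM in spl7 with copper, against 11.4 FPKM in spl7 on MS, a log2 ratio of 5.61. ELI3-2, a gene of the cinnamyl-alcohol dehydrogenase family, had 66.8 FPKM with copper, against 3.74 FPKM on MS, a log2 ratio of 3.84. SIB1, which encodes a plastid sigma factor binding protein, had 58.0 FPKM with copper, against 4.57 FPKM on MS, a log2 ratio of 3.40. The copper library was high and the MS library low in each. CML41, a calmodulin-like protein, had 125 FPKM with copper, against 11.1 FPKM on MS. PAD3, the cytochrome P450 that completes camalexin synthesis, had 53.8 FPKM with copper, against 4.90 FPKM on MS. SAG13, a senescence-associated gene, had 36.8 FPKM with copper, against 3.86 FPKM on MS. FLOT1 (AT5G25250), a flotillin of the plasma membrane, had 34.1 FPKM with copper, against 2.69 FPKM on MS.

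The remaining genes among the 12 highest were GSTF7 and the unnamed AT4G12735, AT1G21520, AT2G18193 and AT2G04050, with log2 ratios between 2.98 and 3.37. AT2G18193 had 343 FPKM with copper, against 39.7 FPKM on MS, and AT1G21520 had 338 FPKM with copper, against 35.3 FPKM on MS. Some genes were listed at 0 on MS and were well expressed with copper. AT2G04070 had 92.6 FPKM with copper, PNP-A, a plant natriuretic peptide, had 47.7 FPKM, and CYP71A12, a cytochrome P450 of indolic defence compounds, had 35.4 FPKM. AT1G57630, AT5G02220 (SMR4, a cyclin-dependent kinase inhibitor) and AT2G12461 had between 25.0 and 28.2 FPKM. Of these 6 genes CYP71A12 alone was also listed at 0 in wild type on MS, where the others had between 3.38 FPKM for AT2G04070 and 20.5 FPKM for AT2G12461.

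Among genes called higher, the most abundant were AZI1 and its neighbour EARLI1. AZI1 is a lipid-transfer-like protein known for systemic priming of defence. It had 1943 FPKM in spl7 with copper, against 456 FPKM in spl7 on MS, and EARLI1 had 1248 FPKM with copper, against 299 FPKM on MS. Both stood about as far apart on the log scale, with log2 ratios of 2.09 and 2.06. They lie in the longest row of neighbouring genes called higher, on chromosome 4 from 7401109 to 7414927 (TAIR10). Its other members were AT4G12490 and AT4G12500, which had 7.05 FPKM with copper and was listed at 0 on MS. In all, 33 of the 310 genes had a called neighbour, in 15 such rows, which included the pairs GSTF7 with GSTF6, GSTU24 with GSTU25, and UGT74E2 with AT1G05675. The share that random placement of 310 genes would give was not tested. The files hold uniquely mapped reads, which lowers the values of near-identical copies.

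Other abundant genes called higher had roles in conjugation and transport. MRP3, an ABC transporter of the vacuole membrane, had 846 FPKM with copper, against 215 FPKM on MS. UGT74E2, a glycosyltransferase that conjugates indole-butyric acid, had 662 FPKM with copper, against 159 FPKM on MS. GSTF2, a glutathione S-transferase, had 786 FPKM with copper, against 320 FPKM on MS. The 3 genes had log2 ratios of 1.97, 2.05 and 1.30.

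Among genes above 0 in both spl7 libraries, the median size of the log2 ratio was 1.18 for those called lower, against 1.42 for those called higher. AT1G13609 had 56.3 FPKM in spl7 with copper, against 191 FPKM in spl7 on MS, a log2 ratio of -1.74. Its neighbours AT1G13608 and AT1G13607 were listed at 0 with copper and had 21.2 and 6.46 FPKM on MS. These 3 loci made up the longest row of neighbouring genes called lower. AT4G15670 had 8.66 FPKM with copper, against 30.1 FPKM on MS, and next to it AT4G15680 had 33.6 FPKM with copper, against 76.4 FPKM on MS. AT4G36670 (PMT6), a polyol transporter, had 43.6 FPKM with copper, against 132 FPKM on MS. PP2-A5, a phloem protein, had 4.55 FPKM with copper, against 15.3 FPKM on MS. AT1G03020, the most abundant of the genes called lower, had 93.9 FPKM with copper, against 221 FPKM on MS. PHO1;H1, a homologue of the phosphate exporter PHO1, had 39.9 FPKM with copper, against 88.4 FPKM on MS.

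**Figure D2:**
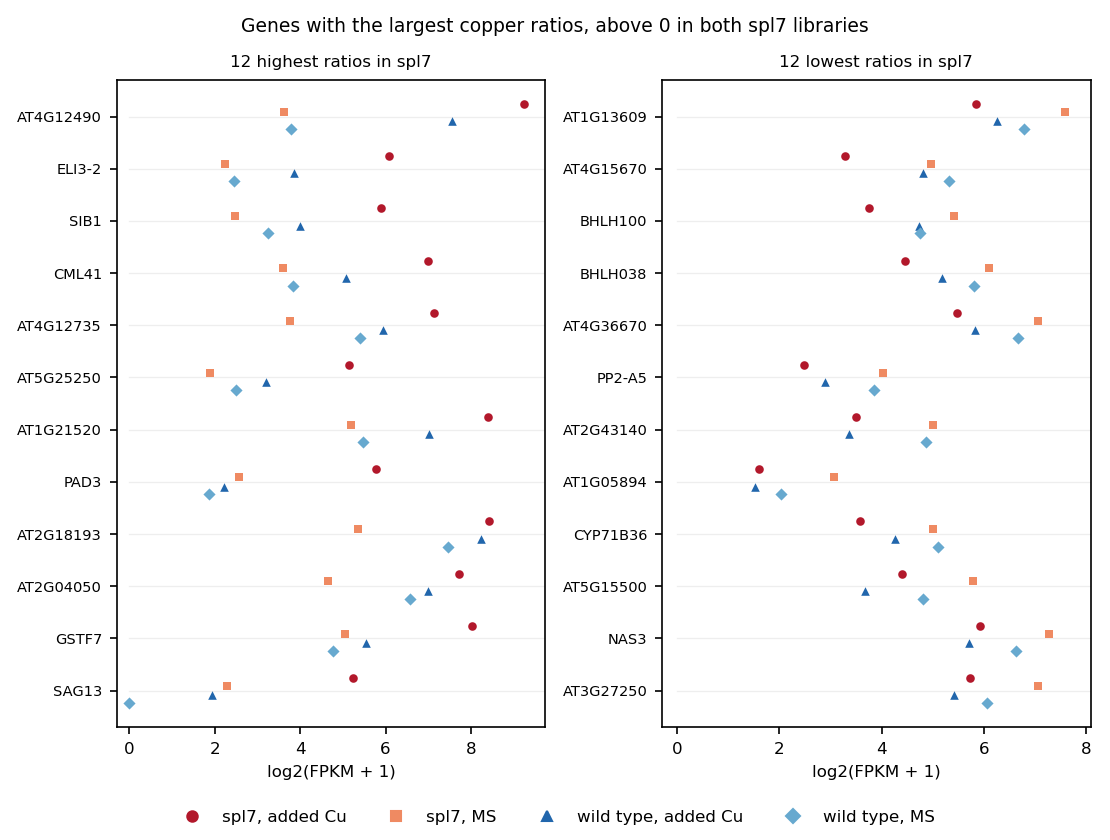
The horizontal axes give log2(FPKM + 1) in the 4 libraries for the 12 genes with the highest (left) and the 12 with the lowest (right) copper ratio in spl7 among genes above 0 in both spl7 libraries. On the left the spl7 library with copper lies above all the others for every gene shown, and on the right the spl7 library on MS lies above the spl7 library with copper, with the wild-type libraries mostly between them.

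Copper uptake and reduction genes did not differ past 2-fold between the spl7 libraries. None of the 6 members that reached 5 FPKM was called, and their median log2 ratio was -0.03, equal to that of all genes. COPT2, a plasma-membrane copper transporter and SPL7 target, had 23.5 FPKM in spl7 with copper, against 19.8 FPKM in spl7 on MS. In wild type the same gene had 28.5 FPKM with copper, against 153 FPKM on MS. Both spl7 values were near the wild-type value with copper and far below the wild-type value on MS. COPT1, the main root copper transporter, had 480 FPKM with copper, against 458 FPKM on MS. COPT6 (AT2G26975) had 312 FPKM with copper, against 343 FPKM on MS. YSL1 and YSL3, transporters of metal-nicotianamine complexes, had 191 and 44.1 FPKM with copper, against 178 and 55.5 FPKM on MS, and ZIP4 had 80.1 FPKM with copper, against 91.0 FPKM on MS.

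ZIP2, the copper-responsive reductases FRO4 and FRO5, and AT1G71200 were listed at 0 in both spl7 libraries and in wild type with copper, and were above 0 in wild type on MS, where they had 96.5, 13.9, 4.54 and 15.9 FPKM. COPT3 and COPT4 were listed at 0 in all 4 libraries. COPT5 and YSL2 share their locus with other entries and were set aside. Their log2 ratios in spl7 were -0.15 and -0.18.

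Among copper chaperones and copper ATPases, 1 of 10 members was called higher, against 1.95% of all genes, and none lower. Their median log2 ratio was -0.01. The called member was HMA5, the copper-pumping ATPase of roots that is known to serve copper detoxification. It had 66.9 FPKM in spl7 with copper, against 28.4 FPKM in spl7 on MS, a log2 ratio of 1.21. HMA5 in wild type had 44.3 FPKM with copper, against 25.3 FPKM on MS, a log2 ratio of 0.78 that did not reach 2-fold. The copper library was the higher one in both genotypes. HCC2 (AT4G39740), a homologue of a mitochondrial copper chaperone, was next, with 26.4 FPKM with copper, against 17.1 FPKM on MS. CCH, ATX1, HCC1 (AT3G08950), AT1G53030 and AT1G02410, with the ATPases PAA1 and RAN1, had log2 ratios between -0.28 and 0.14. CCS, which loads copper into Cu/Zn superoxide dismutases, had 885 FPKM with copper, against 1040 FPKM on MS. In wild type CCS had 981 FPKM with copper, against 162 FPKM on MS. COX17, a copper chaperone of mitochondria, had 94.3 FPKM in spl7 with copper and 44.6 FPKM in spl7 on MS, but it shares its locus with MT3 and was set aside.

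No superoxide dismutase differed past 2-fold between the spl7 libraries, and the 5 members compared had a median log2 ratio of 0.04. FSD1, the iron enzyme of plastids, had 9.38 FPKM in spl7 with copper, against 7.64 FPKM in spl7 on MS. In wild type FSD1 had 14.0 FPKM with copper, against 5647 FPKM on MS, a log2 ratio of -8.55. CSD2, the Cu/Zn enzyme of plastids, had 4444 FPKM in spl7 with copper, against 4929 FPKM in spl7 on MS. In wild type CSD2 had 5164 FPKM with copper, against 466 FPKM on MS. Both spl7 libraries thus held little FSD1 and much CSD2, as wild type with copper did. CSD1 shares its locus and was set aside, with 2035 FPKM in spl7 with copper and 2090 FPKM in spl7 on MS. FSD2, FSD3 and MSD1 had log2 ratios between 0.02 and 0.16, and the set-aside CSD3 had -0.09.

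Of 9 copper proteins of the cell wall, the plastid and the microRNA target group, none was called, and the median log2 ratio was -0.19. ARPN, a plantacyanin, came nearest, with 208 FPKM in spl7 with copper, against 105 FPKM in spl7 on MS, a log2 ratio of 0.99. ARPN in wild type had 172 FPKM with copper, against 35.9 FPKM on MS, a log2 ratio of 2.23. The laccases LAC17 and IRX12 (LAC4) had 53.4 and 80.1 FPKM in spl7 with copper, against 86.7 and 119 FPKM in spl7 on MS. The plastocyanin genes PETE1 and DRT112 (PETE2) had 1808 and 20994 FPKM with copper, against 2060 and 24703 FPKM on MS. LAC2, LAC3, LAC7 and LAC13 had log2 ratios between -0.34 and 0.45, and LAC12 stayed under the minimum. Of the metallothioneins, MT1C and MT2A had log2 ratios of -0.30 and 0.07, and MT2B and MT3, which share loci, had -0.18 and -0.27. MT1A, AT2G42000 and AT2G23240 were listed at 0 in all 4 libraries.

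**Figure D3:**
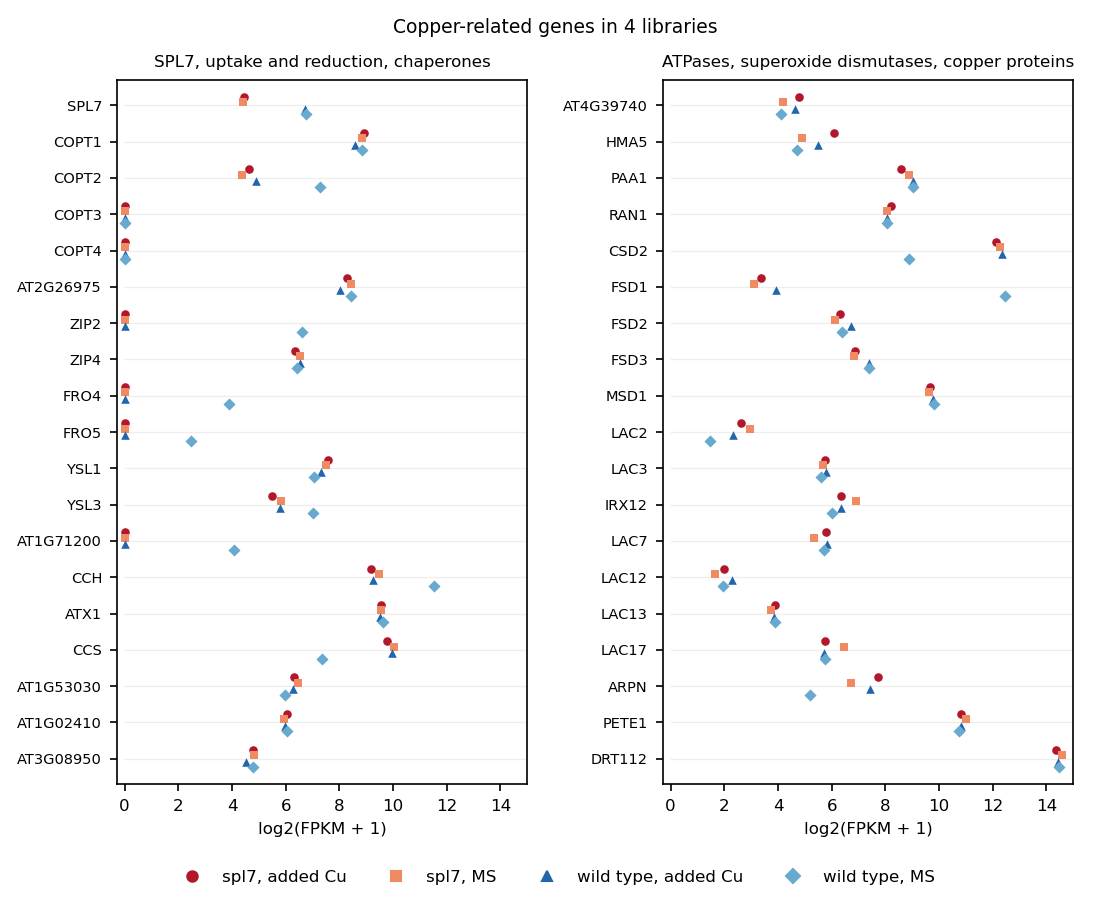
The horizontal axes give log2(FPKM + 1) of SPL7 and of 37 copper-related genes in the 4 libraries, leaving out entries that share a locus. The markers of the spl7 libraries nearly coincide for most genes, HMA5 and ARPN being the widest apart, while COPT2, ZIP2, CCH, CCS, CSD2 and FSD1 show the wild-type library on MS far from the other 3.

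Glutathione S-transferases, which conjugate glutathione to reactive and foreign compounds, had more members called higher than any other list, and more members compared. Of 32 members that reached 5 FPKM, 11 were called higher (34.4%, against 1.95% of all genes) and none lower, with a median log2 ratio of 0.22 against -0.03 over all genes. GSTF7 had 259 FPKM in spl7 with copper, against 31.9 FPKM in spl7 on MS, a log2 ratio of 2.98. GSTU25 had 117 FPKM with copper, against 21.5 FPKM on MS, and GSTU9 had 120 FPKM with copper, against 28.1 FPKM on MS. GSTU24, the most abundant of the tau class among the called members, had 583 FPKM with copper, against 202 FPKM on MS. The other called members were GSTU2, GSTU4, GSTU22, GSTF2, GSTF3, GSTF6 and GSTU11, the last listed at 0 on MS and at 5.84 FPKM with copper. The abundant GSTU5, GSTU17 (ERD9), GSTU19 and GSTF9 were not called and had log2 ratios between -0.08 and 0.27. In wild type 1 of 32 members was called higher, which was GSTU24 with 457 FPKM with copper, against 177 FPKM on MS, and 1 was called lower, which was GSTF13, listed at 0 with copper and at 5.13 FPKM on MS. Genes for glutathione and phytochelatin synthesis were not called in spl7. GSH1, the first enzyme of glutathione synthesis, had 523 FPKM with copper, against 462 FPKM on MS, and the 6 members had a median log2 ratio of 0.16.

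Of 17 genes of oxidative and xenobiotic stress, 6 were called higher (35.3%, against 1.95% of all genes) and none lower, and 16 of the 17 ratios were above 0, with a median of 0.37. AOX1D, an alternative oxidase of mitochondria, had 14.2 FPKM in spl7 with copper, against 1.98 FPKM in spl7 on MS, a log2 ratio of 2.34. CYP81D8, a cytochrome P450 that responds to reactive oxygen, had 165 FPKM with copper, against 34.1 FPKM on MS. BCS1 (OM66), a protein of the outer mitochondrial membrane, had 66.4 FPKM with copper, against 19.6 FPKM on MS. The zinc-finger repressors STZ (ZAT10) and RHL41 (ZAT12) had 42.9 and 89.8 FPKM with copper, against 18.6 and 44.0 FPKM on MS. The sixth was UGT74E2. AOX1A, the main alternative oxidase, did not reach 2-fold, with 443 FPKM with copper, against 235 FPKM on MS. APX1, CAT1 and CAT3, which remove hydrogen peroxide, had log2 ratios of 0.18, 0.03 and 0.06. In wild type none of 16 members was called, and their median was 0.27. Heat shock genes had 1 member of 14 called higher, against 1.95% of all genes, and a median log2 ratio of 0.35. The called gene was the mitochondrial HSP23.6-MITO, with 13.4 FPKM in spl7 with copper, against 5.05 FPKM in spl7 on MS.

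Of 14 members of salicylate and pipecolate defence that reached the minimum, 7 were called higher, against 1.95% of all genes, and none lower. Of the 14, 6 reached it with copper only, which holds for 5 of the 7 called, and 4 of the 7 were listed at 0 on MS. Over the 10 members above 0 in both libraries the median was 0.38, below the 0.94 of the seed list. ALD1, which makes the pipecolate precursor, had 14.7 FPKM with copper and was listed at 0 on MS. GRX480, a glutaredoxin that binds TGA factors, had 10.5 FPKM with copper, BGL2 (PR2), a glucanase, had 5.81 FPKM, and SARD1 (AT1G73805), a regulator of salicylate synthesis, had 5.50 FPKM, and all 3 were listed at 0 on MS. WRKY70, a transcription factor of this pathway, had 32.4 FPKM with copper, against 7.76 FPKM on MS. CBP60G, the calmodulin-binding partner of SARD1, had 31.6 FPKM with copper, against 8.87 FPKM on MS. PBS3, an enzyme of salicylate synthesis, had 6.92 FPKM with copper, against 1.54 FPKM on MS. Upstream genes of the pathway were not called. EDS16 (ICS1), which makes isochorismate, had 42.6 FPKM with copper, against 44.3 FPKM on MS, and EDS1, PAD4 and NPR1 had log2 ratios between 0.01 and 0.20. PR1, the common marker of salicylate responses, had 3.14 FPKM with copper and was listed at 0 on MS, which is under the minimum. In wild type none of the 9 members that reached the minimum there was called. Over the 14 members compared in spl7 the median was 1.11 in spl7 and 0.17 in wild type. The first value includes members listed at 0 on MS. The second includes members under the minimum in wild type, such as ALD1, listed at 0 in both wild-type libraries.

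Of 8 camalexin and tryptophan genes, PAD3 and CYP71A12 were called higher, against 1.95% of all genes, and none lower. Both reached the minimum with copper only. CYP79B2, CYP79B3 and CYP71A13, which act before PAD3, had log2 ratios of -0.22, -0.33 and -0.36. CYP71A13 had 12.7 FPKM in spl7 with copper, against 16.6 FPKM in spl7 on MS. CYP71A12 and CYP71A13 are close copies of each other. Of pattern-triggered immunity genes, 4 of 13 were called higher (30.8%, against 1.95% of all genes) and none lower, with a median of 0.10. Of these 4, 2 reached the minimum with copper only. WAK1, a wall-associated kinase, had 71.3 FPKM with copper, against 11.6 FPKM on MS. WRKY46 had 26.7 FPKM with copper, against 8.54 FPKM on MS, CYP81F2, an enzyme of indole glucosinolates, had 13.2 FPKM with copper, against 3.66 FPKM on MS, and FRK1, a kinase induced by flagellin, had 8.12 FPKM with copper, against 1.42 FPKM on MS. The receptor FLS2 and the kinases BIK1 and MPK3 had log2 ratios between -0.26 and 0.04.

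Other hormone and stress lists had few calls. None of 19 jasmonate genes was called, and their median was 0.00, with AOC2, an allene oxide cyclase, at 938 FPKM with copper, against 1675 FPKM on MS. None of 13 ethylene genes was called, and the highest, ACS2, a synthase of the ethylene precursor, had 11.1 FPKM with copper, against 5.10 FPKM on MS. Among 14 genes of abscisate, cold and drought, 12 had ratios below 0, the median was -0.27, and COR15A, a cold-regulated plastid protein, was called lower with 16.0 FPKM with copper, against 37.3 FPKM on MS. In wild type none of 13 members of this list had a ratio above 0, and the median was -0.28. No flavonoid gene of 12 was called. Among 13 clock genes, ELF4, an evening-complex gene, was called higher with 16.4 FPKM with copper, against 4.41 FPKM on MS. In wild type ELF4 had 15.2 FPKM with copper and 16.4 FPKM on MS, so the spl7 library on MS was the low one.

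**Figure D4:**
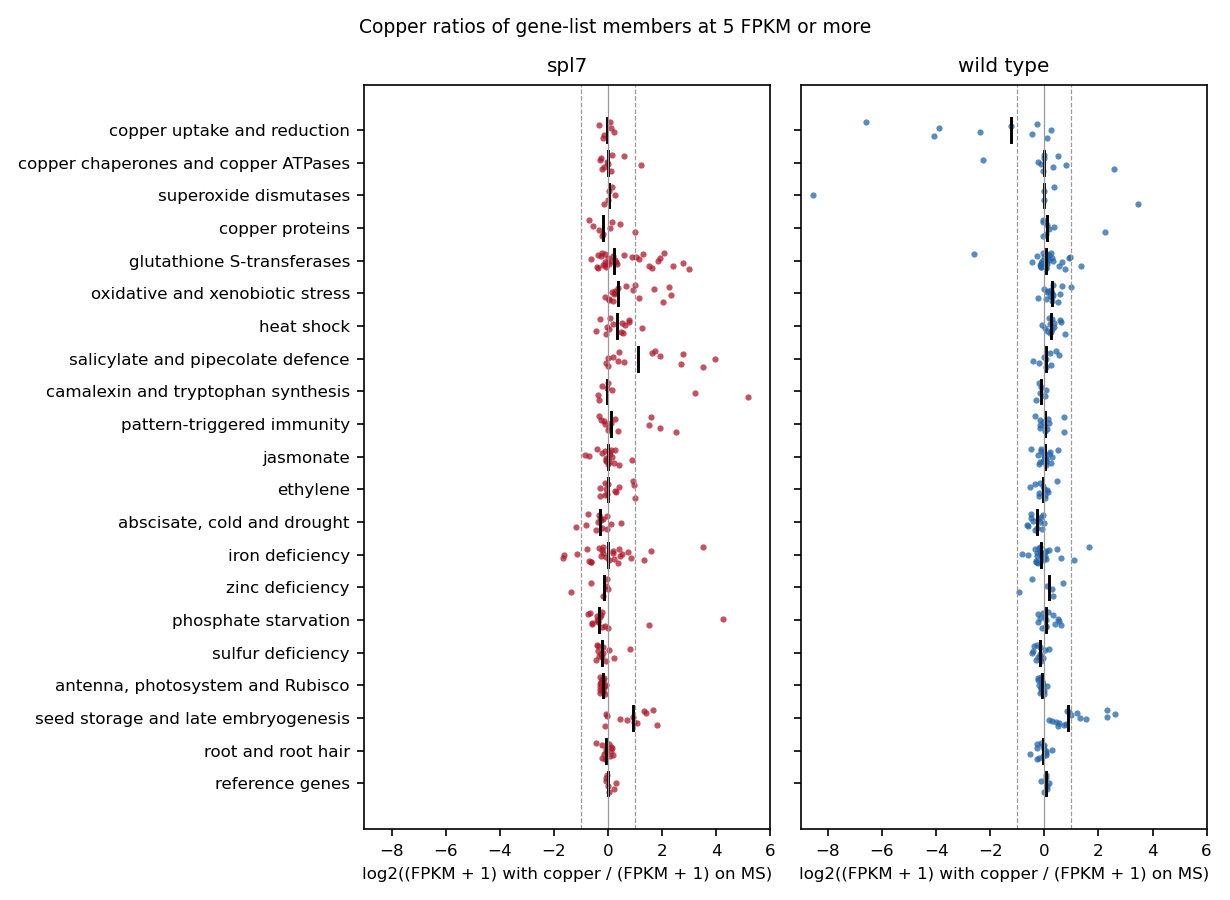
Each point is a list member that reached 5 FPKM in either library of the genotype named above the panel, placed by its log2 ratio of added copper over MS, and black bars are list medians. In spl7 (left) the points past the right dashed line, which marks 2-fold, gather in the glutathione S-transferase, oxidative stress, defence and seed lists, and in wild type (right) the calls in the copper lists reach farthest from 0, beside calls in the seed, iron and glutathione S-transferase lists.

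Iron-deficiency genes had calls in both directions, with 3 of 26 called higher, 3 called lower and a median log2 ratio of -0.01. Over all genes, 1.95% were called higher and 0.51% lower. The 3 lower genes were transcription factors of the same bHLH subgroup, which is known to rise under iron shortage. BHLH100 had 12.5 FPKM in spl7 with copper, against 41.8 FPKM in spl7 on MS, a log2 ratio of -1.66. BHLH038 had 21.0 FPKM with copper, against 67.2 FPKM on MS, and BHLH039, its neighbour, had 17.5 FPKM with copper, against 40.3 FPKM on MS. The fourth of the subgroup, BHLH101, had 32.4 FPKM with copper, against 56.2 FPKM on MS, which did not reach 2-fold. In wild type BHLH100 had 25.4 FPKM with copper, against 26.0 FPKM on MS, and BHLH038 had 35.4 FPKM with copper, against 54.7 FPKM on MS. The spl7 library with copper was the lowest of the 4 and the spl7 library on MS the highest for both genes.

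The 3 iron-list genes called higher were NAS2, CYP82C4 and NRAMP3, of which NAS2 and CYP82C4 reached the minimum in spl7 with copper only. NAS2, a nicotianamine synthase, had 10.6 FPKM in spl7 with copper and was listed at 0 in spl7 on MS. In wild type NAS2 had 14.3 FPKM with copper, against 3.92 FPKM on MS, and was called higher there too. CYP82C4, an enzyme of coumarin synthesis, had 7.65 FPKM in spl7 with copper, against 1.90 FPKM in spl7 on MS, and 18.4 FPKM with copper and 20.9 FPKM on MS in wild type. NRAMP3, a vacuolar metal exporter, had 198 FPKM in spl7 with copper, against 78.5 FPKM in spl7 on MS, and in wild type 155 FPKM with copper, against 72.7 FPKM on MS, so that it passed 2-fold in both genotypes. The root uptake genes IRT1 and FRO2 were not called, with 34.7 and 15.8 FPKM with copper, against 20.2 and 11.9 FPKM on MS. Ferritins and other iron-storage genes had no call among 7, and FER1 had 1851 FPKM with copper, against 2295 FPKM on MS.

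Of 6 zinc-deficiency genes, NAS3, another nicotianamine synthase, was called lower with 59.8 FPKM with copper, against 154 FPKM on MS. In wild type NAS3 had 51.1 FPKM with copper, against 97.9 FPKM on MS. Phosphate-starvation genes had ratios below 0 in 14 of 16 members, with a median of -0.33, and none was called lower. The signalling gene SPX1 had 628 FPKM with copper, against 1061 FPKM on MS. The 2 members called higher are not uptake genes. PHT3;2 is a phosphate carrier of the mitochondrial membrane and had 18.1 FPKM with copper, being listed at 0 on MS, and RNS1 is a secreted ribonuclease with 80.0 FPKM with copper, against 27.0 FPKM on MS. Sulfur-deficiency genes had no call among 13 and a median of -0.21, and LSU1 had 4549 FPKM with copper, against 5474 FPKM on MS.

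Marker lists were read beside these groups. Seed storage and late-embryogenesis markers were mostly higher with copper in both genotypes. In spl7, 9 of 12 ratios were above 0 and 3 below, with a median of 0.94. All 16 wild-type ratios were above 0, with a median of 0.87, or 0.82 over the 12 members compared in spl7. In spl7, 5 of 12 members were called higher, against 1.95% of all genes, and in wild type 6 of 16, against 0.862%. Summed over the 12 members compared in spl7, their level was 734 FPKM in spl7 with copper, against 284 FPKM in spl7 on MS. In wild type the sum over the same 12 was 770 FPKM with copper, against 411 FPKM on MS. CRA1, a cruciferin, had 331 FPKM in spl7 with copper, against 102 FPKM in spl7 on MS, and PER1, a seed peroxiredoxin, had 77.8 FPKM with copper, against 21.5 FPKM on MS. CRU3, OLEO2 and GEA6 (EM6) were the other called members. CRU2, SESA4, SESA5 and OLEO3 were listed at 0 in both spl7 libraries, though 16 of the 17 members kept reached the minimum in wild type. The part of residual seed transcripts in the other calls was not tested.

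Antenna, photosystem and Rubisco genes lay a little below 0 in all 19 members compared, between -0.31 and -0.07 with a median of -0.18, and none was called. They kept the sign with the median of all genes set to 0. Their sum was 372229 FPKM in spl7 with copper, against 432038 FPKM in spl7 on MS. In wild type 1 of 19 ratios was above 0, with a median of -0.09. Root and root-hair genes had no call among 13 and a median of -0.05, and guard-cell and trichome genes had none among 6. Among 4 senescence genes only SAG13 was called, SAG12 was listed at 0 in all 4 libraries, and NAP and NAC6 (ORE1) had 50.5 and 52.4 FPKM with copper, against 69.2 and 60.2 FPKM on MS. Over all 29 lists, 44 of 337 members were called higher and 5 lower, where 1.95% of all genes were called higher and 0.51% lower.

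The same copper contrast in wild type used other libraries. There 137 of 15888 genes were called higher, or 0.862%, and 47 lower, or 0.296%. Over the 15646 genes that reached the minimum in both contrasts, 68 were called higher in both genotypes, which is 27.3% of the 249 called in spl7 and 60.2% of the 113 called in wild type. Lower in both were 6, which is 11.1% of 54 in spl7 and 18.8% of 32 in wild type. Whether the copper ratio differs between the genotypes was not tested, since no genotype and medium had a second library.

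Genes called higher in spl7 mostly leaned the same way in wild type. Of 211 such genes above 0 in all 4 libraries, 189 (89.6%) had a wild-type ratio above 0, against 49.2% of all 15565 genes. Their median log2 ratio was 1.44 in spl7 and 0.60 in wild type. The spl7 ratio was the ground of the choice, so the sizes of the medians cannot be compared. The choice itself put the spl7 library with copper above the spl7 library on MS. For 165 of the 211 the spl7 library with copper was the highest of the 4, and for 167 the spl7 library on MS was the lowest. Over all 15565 genes these numbers were 3067 and 4034. The choice favoured both outcomes, so all genes are no baseline for them. Of 30 genes called lower in spl7, 3 had a wild-type ratio above 0, and the wild-type median was -0.61. Across the 15565 genes the ratios of the genotypes had a Pearson r of 0.43 and a Spearman rho of 0.33. Those are values across genes, which are not independent, and the parts of a shared batch or of the making of the copper and MS files were not tested.

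The 6 genes called higher in both genotypes with the largest common ratio were led by AT4G12490. It had 186 FPKM in wild type with copper, against 12.8 FPKM in wild type on MS. SDH1-2, a subunit of mitochondrial succinate dehydrogenase, had 69.7 FPKM in spl7 with copper, against 18.6 FPKM in spl7 on MS. SDH1-2 in wild type had 91.6 FPKM with copper, against 21.4 FPKM on MS. BCB, a blue copper-binding protein induced by metals, had 576 FPKM in spl7 with copper, against 179 FPKM in spl7 on MS. BCB in wild type had 343 FPKM with copper, against 99.8 FPKM on MS. The other 3 were AT5G22140, AT5G23700 and AT5G60250, with log2 ratios between 1.74 and 2.38 in spl7 and between 1.69 and 1.88 in wild type. Lower in both and above 0 in all 4 libraries were AT2G43140, AT5G15500, AT5G47590 and AT1G60110. AT2G43140 had 10.3 FPKM in spl7 with copper, against 30.9 FPKM in spl7 on MS. The wild-type values were 9.31 FPKM with copper, against 28.1 FPKM on MS.

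Other genes called higher in spl7 were not called in wild type, or stayed under the minimum there. PAD3 had 3.64 FPKM in wild type with copper, against 2.64 FPKM in wild type on MS, so it was under the minimum and not compared. GSTF7 had 45.6 FPKM in wild type with copper, against 26.5 FPKM in wild type on MS, and GSTU9 had 55.4 FPKM with copper, against 47.0 FPKM on MS. For PAD3 and GSTF7 the spl7 library with copper stood apart from the other 3. AT2G04050 had 211 FPKM in spl7 with copper, against 24.2 FPKM in spl7 on MS. AT2G04050 in wild type had 126 FPKM with copper, against 94.8 FPKM on MS. Here the spl7 library on MS was the one that stood apart.

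**Figure D5:**
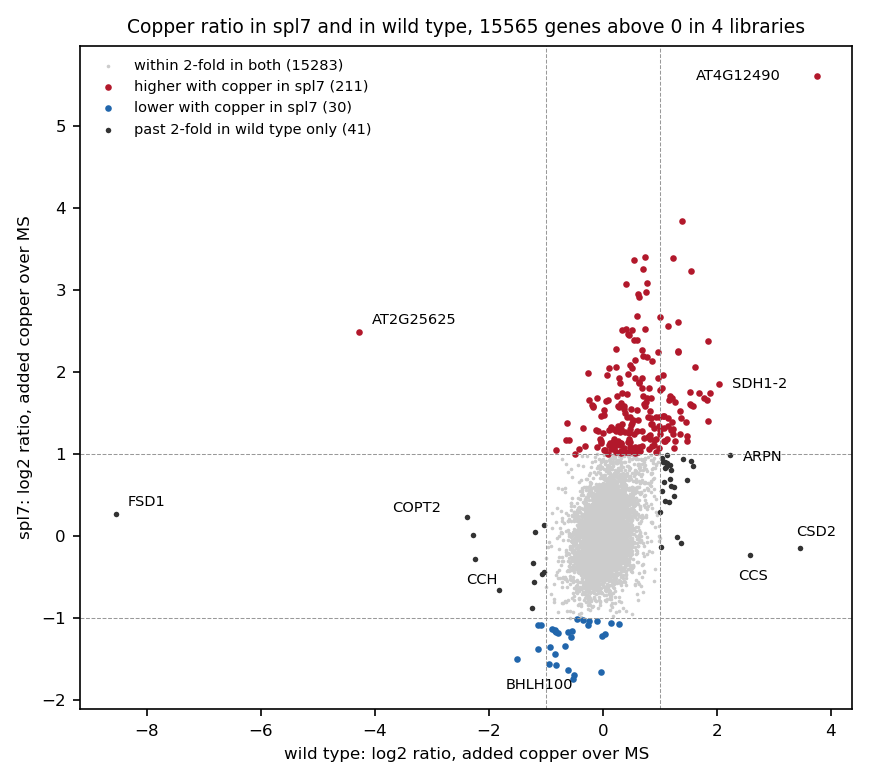
Each point is 1 of 15565 genes above 0 in all 4 libraries, with its log2 ratio of added copper over MS in spl7 on the vertical axis and in wild type on the horizontal axis, and dashed lines at 2-fold. Most of the 211 genes called higher in spl7 lie right of 0, while FSD1, COPT2, CCH, CCS and CSD2 are far from 0 in wild type and near 0 in spl7.

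The chromatin immunoprecipitation of FLAG-SPL7 in this series gave 1535 peaks, which carry the authors' own scores. Genes called higher in spl7 with copper had a peak within 1 kb in 12 of 310 cases (3.87%), and genes called lower in none of 81. Among all 15871 genes the share was 7.79%, or 1237 genes. The called genes were also shorter, with a median locus length of 1575 bp for those called higher and 2196 bp for all, so their windows were narrower. Of the 12, AT1G56060 and AT4G32510 were listed at 0 on MS and had 5.68 and 5.50 FPKM with copper. Among those above 0 in both spl7 libraries, the largest ratios belonged to AZI1, EARLI1, AT2G20635 and the acyltransferase AACT1. AT2G20635 had 64.0 FPKM in spl7 with copper, against 18.19 FPKM in spl7 on MS. Its wild-type values were 66.8 FPKM with copper, against 22.4 FPKM on MS.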

How the data were processed

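RNA-seq values of 4 libraries and 1 peak list were used, with samples grouped by genotype and medium as labelled. The FPKM values were deposited by the authors and made with TopHat and Cufflinks on TAIR10 from uniquely mapped reads, per the submitters' processing notes and the series' design text. Base calling used CASAVA 1.8.2 and peaks used Bowtie, per the same notes. For the other tools the sources used here name no version. The peak score was deposited by the authors, with no unit given. No strand-specific kit is stated, so reads of overlapping antisense genes cannot be told apart. Values at low FPKM did not resolve into whole reads, so the depth is unknown.

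Entries were joined by name and locus, and 26924 of 27052 were matched to locus codes through RefSeq's table for TAIR10.1, used for names alone. A call needed 5 FPKM in either library and a 2-fold ratio with a pseudocount of 1 FPKM. An additive fit over the 4 libraries, which would take the difference between genotypes as error, was not run. The rule was run on simulated spl7 data of 23678 entries with genes above 50 FPKM changed. It called all 50 genes made 4-fold higher and all 50 made 4-fold lower. None of the 50 made 1.5-fold higher or the 50 made 1.5-fold lower was called. The simulated noise was small beside these folds, so this outcome was fixed and checks the working of the rule alone. It says nothing of calls on weakly expressed genes or genes listed at 0. The contrast, the 29 lists and the alternatives were chosen with earlier results of these data known, and 14 of 451 list genes were not matched and not analysed here. Genes were named by fixed rules: the 12 highest and 12 lowest ratios, the 6 highest values among genes at 0 in 1 library, the 6 most abundant, the called list members, the copper lists in full, the 6 largest ratios common to both genotypes, opposite calls, and the 4 largest ratios with a peak. Other genes, such as neighbours and uncalled list members, were named after their values were seen. Python 3.11.15 with pandas 2.3.3, numpy 2.4.6 and matplotlib 3.10.9 was used.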

Additional observations from a re-analysis of the deposited data

Results flagged for a closer look

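Of the 15646 genes that reached the minimum in both contrasts, 11 were called in opposite directions in spl7 and in wild type. The difference between the genotypes was not tested. AT2G25625 was the only one above 0 in all 4 libraries, with 20.0 FPKM in spl7 with copper, against 2.77 FPKM in spl7 on MS. In wild type it had 4.90 FPKM with copper, against 114 FPKM on MS. The other genes called higher in spl7 were listed at 0 in spl7 on MS. These were AT1G53542 with 18.1 FPKM, AT5G36925 with 12.4 FPKM, AT2G32200 with 6.56 FPKM and CYP79F1, a cytochrome P450 of aliphatic glucosinolates, with 6.82 FPKM in spl7 with copper. The genes called lower in spl7 were listed at 0 in spl7 with copper. They were AT4G37095 with 23.62 FPKM, AT5G04790 with 19.2 FPKM, AT5G60260 with 7.07 FPKM, AT5G55680 with 7.02 FPKM, IDL5 with 6.35 FPKM and AT5G02570 with 5.95 FPKM in spl7 on MS. All of these were listed at 0 in wild type on MS. AT1G53542, AT5G36925 and AT2G32200 were listed at 0 in wild type with copper. CYP79F1 in wild type had 3.59 FPKM with copper, against 9.53 FPKM on MS. An exact 0 may be a failed estimate, so most of the opposite calls rest on zeros in both genotypes.

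Entries set aside also passed the fold. Of 2836 that reached 5 FPKM, 62 were higher and 17 lower with copper in spl7. The 30 CPuORF entries among them gave 11 higher and 1 lower. DTX1, a multidrug exporter listed in the files as TX1, had 63.9 FPKM in spl7 with copper, against 16.0 FPKM in spl7 on MS. OLEO1, an oleosin, had 22.0 FPKM with copper, against 6.82 FPKM on MS, and WRKY40 had 24.8 FPKM with copper, against 11.2 FPKM on MS.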

How the results depend on the processing

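No paired analysis was possible because each group held 1 library. Setting the median ratio or the upper quartile level, or a pseudocount of 0.1 FPKM, moved none of the 4 counts (higher and lower in spl7, higher and lower in both genotypes) by 1.5 times. With a pseudocount of 5 FPKM, 36 were higher and 3 lower in both genotypes, and 9 of 97 named calls were lost, those of AACT1, AT1G05894, AT1G60110, AT5G23700, AT5G47590, CYP82C4, GEA6, HSP23.6-MITO and RHL41. A minimum of 1 FPKM, or none, gave 482 higher and 293 lower in spl7 and 124 higher and 32 lower in both. A minimum of 20 FPKM gave 154 and 22 in spl7, and 32 and 3 in both. A 1.5-fold threshold gave 709 and 301 in spl7, and 210 and 36 in both. A 4-fold one gave 116 and 46 in spl7, and 16 and 2 in both. Listed at 0 in spl7 on MS were 71 of the 116, and all 46 were listed at 0 in spl7 with copper. Such genes passed 4-fold only through the pseudocount of 1 FPKM. Among genes above 0 in both spl7 libraries, 45 were at least 4-fold higher and none was 4-fold lower. With all joined entries kept, 11 were lower in both. Leaving out genes listed at 0 in either library left 35 lower in spl7. The counts of calls thus depended on the minimum, the fold and the zeros, and no named gene changed direction.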

Other observations

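Genes outside the lists were also called, and those given here were chosen after their values were seen. PP (PARP2), a poly(ADP-ribose) polymerase, had 45.7 FPKM in spl7 with copper, against 16.3 FPKM in spl7 on MS. PP in wild type had 58.1 FPKM with copper, against 25.8 FPKM on MS. AT3G27630 (SMR7), a cyclin-dependent kinase inhibitor, had 11.9 FPKM in spl7 with copper and was listed at 0 in spl7 on MS, and it had 16.5 FPKM in wild type with copper, against 8.67 FPKM in wild type on MS. WEE1, a kinase that delays the cell cycle, had 15.4 FPKM in spl7 with copper, against 7.11 FPKM in spl7 on MS. AUR3, an Aurora kinase, had 32.3 FPKM in spl7 with copper, against 12.6 FPKM in spl7 on MS. AUR3 in wild type had 27.3 FPKM with copper, against 11.4 FPKM on MS. ATSPO11-1, which is known for cutting DNA in meiosis, had 11.0 FPKM in spl7 with copper, against 2.45 FPKM in spl7 on MS.

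Transporters outside the lists were chosen in the same way. PCR2, a zinc exporter of the plasma membrane, had 139 FPKM in spl7 with copper, against 43.3 FPKM in spl7 on MS, while wild type had 58.7 FPKM with copper and 54.9 FPKM on MS. YSL7 had 41.9 FPKM in spl7 with copper, against 20.1 FPKM in spl7 on MS. HAK5, a potassium transporter, had 5.63 FPKM in spl7 with copper, against 0.924 FPKM in spl7 on MS. ABCB4, an auxin transporter, had 231 FPKM in spl7 with copper, against 76.1 FPKM in spl7 on MS. In wild type it had 125 FPKM with copper, against 104 FPKM on MS.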
